A study of Mus musculus with 73 samples.

Results

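Yap1 lies on mouse chromosome 9 among genes whose RNA stood far above the median in some mammary tumours and not in others. The 9 genes described here are Yap1 and 8 neighbours, Dync2h1, Dcun1d5, Tmem123, Birc2, Birc3, Cfap300, Cep126 and Arhgap42, out of 39438 symbols in the deposited count table. They were chosen on the values of these same tumours, because their RNA was high together with that of Yap1, so their elevation describes how they were selected and is not tested as a finding of its own. The metalloproteinase genes that sit among them were left out of the set.

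RNA was sequenced from 73 mouse mammary tumours in 8 groups. KB1(L1363P)P tumours, called L1363P below, comprised 9 sarcomatoid tumours, 9 carcinosarcomas and 3 adenocarcinomas. KP tumours comprised 3 carcinosarcomas and 5 adenocarcinomas. The remaining tumours were adenocarcinomas, 11 titled KB1P, 10 titled KB1PM (genotype also given as KB1P) and 23 KB2P. In these models, as background, K stands for a Cre recombinase transgene under the Krt14 promoter, which acts in epithelial cells, P for conditional loss of Trp53, and B1 or B2 for conditional loss of Brca1 or Brca2. L1363P is a Brca1 coiled-coil missense variant, and all groups share the Cre and Trp53 alleles. Mouse age, strain and treatment were not given in the labels used here. The labels do not say that each tumour came from its own animal, and KB1P and KB2P tumours were sequenced in runs other than the L1363P and KP tumours, so a p-value here reflects how much the sequenced tumours vary, which may be partly technical.

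YAP1, the protein, is a transcriptional co-activator that the kinases of the Hippo pathway hold in the cytoplasm. When it enters the nucleus it works with TEAD factors on genes of growth, adhesion and the cytoskeleton. Birc2 and Birc3, its close neighbours, encode ubiquitin ligases of the inhibitor of apoptosis family, which act at TNF receptors and hold back cell death and non-canonical NF-kB signalling. The pair, with Yap1, is known in human and mouse carcinomas as a block of genes that are amplified together; copy number was not analysed here.

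In chromosome order (GRCm38, GENCODE M21, strand in brackets) the genes are Dync2h1 at chr9:6928503-7184446 (-), Dcun1d5 at chr9:7184520-7208205 (+), Tmem123 at chr9:7764041-7794333 (+), Birc2 at chr9:7818227-7837064 (-), Birc3 at chr9:7848699-7873186 (-), Yap1 at chr9:7931999-8004596 (-), Cfap300 at chr9:8021672-8042823 (-), Cep126 at chr9:8076461-8134294 (-) and Arhgap42 at chr9:8994329-9239101 (-). All are protein-coding. In GENCODE, Dync2h1 and Dcun1d5 start head to head, 73 bases apart, and Birc2 and Birc3 are separated by 11634 bases. Cep126 and Arhgap42 are the most distant neighbours, with 860034 bases between them.

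The promoter of Yap1 and the stretch between the starts of Dync2h1 and Dcun1d5 are shown because Yap1 anchors the set and because Dync2h1 and Dcun1d5 start beside each other in GENCODE while their folds differ below. RefSeq places the Dync2h1 start elsewhere, with a promoter window at chr9:7177059-7177308, and 1 of its Dcun1d5 promoter windows, chr9:7184255-7184504, reaches into the stretch. Both sequences printed are from RefSeq GRCm38.p6. The Yap1 promoter is the 250 bases before its start, chr9:8004597-8004846, read on the minus strand, with the match to the TEAD motif GGAATG in capitals, at position -141. The stretch between Dync2h1 and Dcun1d5 is chr9:7184447-7184519 on the plus strand, with overlapping matches to the CRE core TGACGT and the ETS motif CCGGAAGT, both read on the minus strand, in capitals. Both motifs of that stretch were picked after the sequence was seen.
Yap1 promoter: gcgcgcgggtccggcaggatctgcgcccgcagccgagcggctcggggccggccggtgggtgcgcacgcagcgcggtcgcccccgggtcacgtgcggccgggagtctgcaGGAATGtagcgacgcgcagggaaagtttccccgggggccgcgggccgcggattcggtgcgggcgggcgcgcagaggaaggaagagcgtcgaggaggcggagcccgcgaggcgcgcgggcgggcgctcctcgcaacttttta
Dync2h1-Dcun1d5 gap: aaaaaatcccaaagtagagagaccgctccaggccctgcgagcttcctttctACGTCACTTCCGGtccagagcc
GGAATG occurred on either strand in 12.6% of 32851 mouse promoter windows of 250 bases, TGACGT in 6.47% and CCGGAAGT in 2.88%. Of the members' other promoter windows, none held GGAATG and none held the NF-kB consensus, which was found in 7.25% of all windows. The share of G and C in the members' promoter windows ran from 42% (1 of Dcun1d5) to 76.4% (Yap1), with Arhgap42 at 75.2% and Birc3 at 43.6%.

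Library totals ran from 7325180 to 31615237 counts, and from 13103749 to 17550129 in the 29 L1363P and KP tumours. Levels are given as CPM (read counts scaled to library size with TMM), over all genes and all 73 tumours, and a fold is a tumour's CPM divided by the median of the 73. CPM is not corrected for gene length, so levels are compared across tumours and not between genes. In bulk tumour RNA, fewer cells of a type and less RNA per cell cannot be told apart. The epithelial label and the RNA disagreed in KP adenocarcinoma 90.01A, labelled 100% epithelial: it had 1.75 CPM of Epcam and 2338 CPM of Vim, against 704 and 597 CPM as medians of its group. L1363P carcinosarcomas 17 (5% epithelial) and 4 (2%) also had the marker levels of sarcomatoid tumours, with 0.951 and 1.67 CPM of Epcam, so comparisons are given with and without these 3 tumours. Low epithelial marker sums also occurred in KB1PM and KB2P adenocarcinomas labelled 100% epithelial, the lowest being 183 and 16.5 CPM. Those tumours were not left out of any comparison for that reason.

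Yap1 stood at 10-fold or more over its median in 12 of 73 tumours. They were 8 of the 9 sarcomatoid tumours, L1363P carcinosarcomas 17 and 4, KP carcinosarcoma 5 and KP adenocarcinoma 90.01A. The lowest of the 12 was KP carcinosarcoma 5 at 17.5-fold, and the highest tumour under the threshold was KB1PM adenocarcinoma 1 at 7.10-fold. After it came KB2P 2 at 1.98-fold and KP 130.10A at 1.87-fold, so no tumour lay between 7.10-fold and 17.5-fold.

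In the 9 sarcomatoid tumours Yap1 ranged from 352 CPM, in L1363P 10, to 14675 CPM, with a median of 10290 CPM. In the 9 L1363P carcinosarcomas it ranged from 212 to 16982 CPM with a median of 251 CPM, and in the 3 L1363P adenocarcinomas it was 391, 308 and 257 CPM. The sarcomatoid group was high in all but L1363P 10, which fell within the adenocarcinoma range, while the carcinosarcoma median lay below all 3 adenocarcinomas and 2 tumours carried the high values. In KP tumours Yap1 was 5175, 552 and 274 CPM in carcinosarcomas, against 10415, 446, 257, 224 and 155 CPM in adenocarcinomas. One tumour of each KP group stood apart and the others overlapped. Adenocarcinomas titled KB1P ran from 230 to 345 CPM (median 295), those titled KB1PM from 184 to 2094 CPM (median 284) and KB2P from 173 to 585 CPM (median 282). The order of the medians was sarcomatoid, KP carcinosarcoma, L1363P adenocarcinoma, KB1P, KB1PM, KB2P, KP adenocarcinoma and L1363P carcinosarcoma. All neighbouring groups in that order overlapped.

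**Figure D1:**
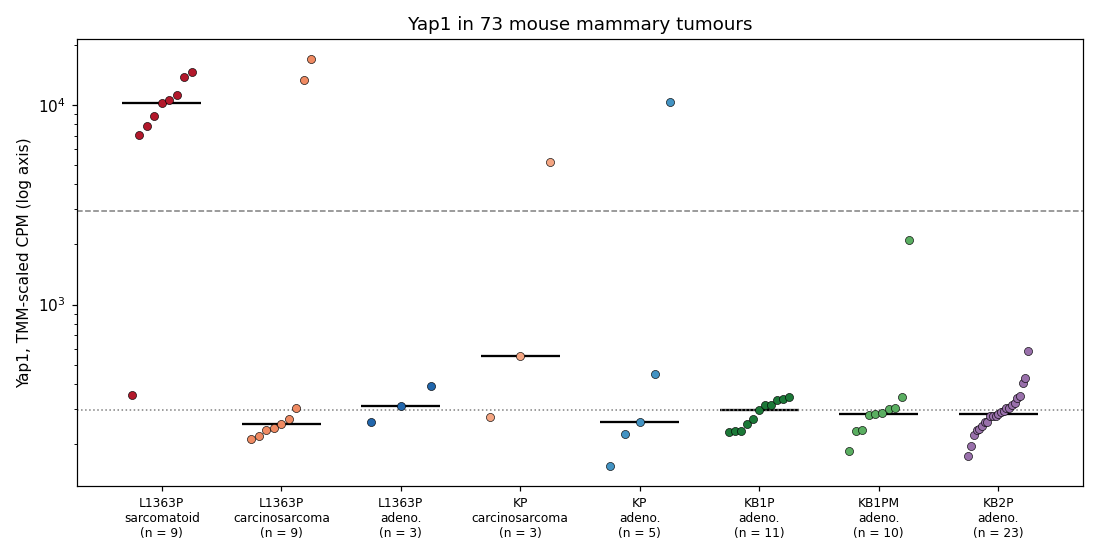
Yap1 level (TMM-scaled CPM, log axis) in each of 73 tumours by group; points are tumours, bars are group medians, the dotted line is the median of all tumours and the dashed line 10 times that median. 12 tumours lie above the dashed line, 8 of them sarcomatoid, and the nearest below it is KB1PM 1 at 2094 CPM.

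Yap1 had the most read counts of all genes in the libraries of L1363P 17, L1363P 32 and KP 90.01A. That rank is by counts, which are not corrected for gene length. In L1363P 17 it made up 1.37% of all counts, and the 9 genes together 3.86% (95% Wilson interval 3.85 to 3.87%, counting error only). Over the 73 tumours the median share of the 9 genes was 0.0930%. In KP carcinosarcoma 5 the share was 1.33%, in KB1PM 1 it was 0.526% and in sarcomatoid tumour L1363P 10 it was 0.0969%.

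The inhibitors of apoptosis were high in all 12 tumours. Birc2 lay between 17.1-fold (L1363P 43) and 59.4-fold (L1363P 4) there, and Birc3 between 24.6-fold (KP 5) and 60.3-fold (L1363P 4). In sarcomatoid tumours Birc2 ranged from 41.5 to 2486 CPM (median 1688), in L1363P carcinosarcomas from 43.4 to 3279 CPM (median 52.3), and in L1363P adenocarcinomas it was 73.5, 58.4 and 52.0 CPM. Birc3 ranged from 74.2 to 2157 CPM (median 1690) in sarcomatoid tumours and from 19.7 to 2466 CPM (median 52.7) in L1363P carcinosarcomas, and was 77.6, 43.8 and 29.5 CPM in L1363P adenocarcinomas. For both genes L1363P 10 was the only sarcomatoid tumour not above all 3 adenocarcinomas, below them in Birc2 and within their range in Birc3. In KP tumours Birc2 was 2857, 122 and 47.2 CPM in carcinosarcomas, against 2098, 72.5, 55.8, 42.0 and 30.9 CPM in adenocarcinomas, and Birc3 was 1008, 108 and 48.1 CPM against 2192, 54.1, 42.5, 26.7 and 26.6 CPM. In KP 5 the Birc2 fold exceeded the Birc3 fold (51.7 and 24.6), while L1363P 43 and 9.1 had the reverse, 41.3 and 52.7-fold for Birc3 beside 17.1 and 22.6-fold for Birc2.

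Birc2 and Birc3 also stood high in some tumours without Yap1. Both were at 2-fold or more in KB1P 12 (3.80 and 3.67-fold, Yap1 1.00-fold) and in KB2P 16 (3.36 and 3.52-fold, Yap1 1.02-fold), and Birc3 alone in KB2P 12 and KB1PM 10. In none of those 4 tumours was any of the other members at 2-fold. Of their transcript sequence, 1.485% of the 50-base words of Birc2 and 7.56% of those of Birc3 also occur in transcripts of other genes, and 65 words are shared between the pair, so a small part of their reads could be assigned to either gene.

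The ciliary and centrosomal genes behaved unequally. Cfap300, which in humans is needed to assemble the dynein arms of motile cilia, had the highest single fold of the set, 141 in L1363P 17, and the lowest of the 12 was 9.73 in L1363P 9.1; its median over all 73 was 12.0 CPM. Sarcomatoid tumours held 13.8 to 1179 CPM of Cfap300 (median 846), L1363P carcinosarcomas 3.39 to 1698 CPM (median 7.11), and L1363P adenocarcinomas 35.5, 9.41 and 8.50 CPM. Cep126, a centrosomal protein that organises microtubules at the base of cilia, reached no more than 25.4-fold (L1363P 17) and was at 7.41-fold in L1363P 9.1. Its levels were 10.8 to 311 CPM (median 229) in sarcomatoid tumours, 6.10 to 534 CPM (median 14.96) in L1363P carcinosarcomas, and 31.8, 29.6 and 21.1 CPM in L1363P adenocarcinomas. Cfap300 and Cep126 are neighbours, yet Cep126 had 0.0859 to 0.761 times the fold of Cfap300 in the 12 tumours.

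Dync2h1 encodes the heavy chain of the dynein motor that carries cargo back down the cilium. It was at 2-fold or more in 11 of the 12 tumours, up to 47.9-fold (L1363P 4), and 0.907-fold in L1363P 9.1. Sarcomatoid tumours held 42.7 to 1798 CPM (median 1147), L1363P carcinosarcomas 33.8 to 2258 CPM (median 51.7), and L1363P adenocarcinomas 53.1, 47.1 and 27.0 CPM. Dcun1d5, whose product promotes the attachment of NEDD8 to cullins, was at 2-fold or more in the same 11 tumours, up to 91.6-fold (L1363P 17). Its levels were 110 to 5394 CPM (median 3259) in sarcomatoid tumours, 62.7 to 6358 CPM (median 67.2) in L1363P carcinosarcomas, and 82.3, 77.7 and 63.7 CPM in L1363P adenocarcinomas, so that all 9 sarcomatoid tumours lay above the adenocarcinomas. The ratio of the Dcun1d5 fold to the Dync2h1 fold, for genes whose GENCODE starts flank the 73 bases printed above, ran from 1.01 (KP 5) to 8.64 (L1363P 40.1, 61.6 and 7.13-fold). In KB1PM 1 it was 0.417.

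Tmem123 encodes a transmembrane mucin-like receptor linked to a swelling form of cell death in human cells. It was at 2-fold or more in the same 11 tumours, up to 53.0-fold (L1363P 17), and at 1.40-fold in L1363P 9.1. Sarcomatoid tumours held 312 to 8942 CPM (median 6675), L1363P carcinosarcomas 174 to 11873 CPM (median 286), and L1363P adenocarcinomas 291, 249 and 211 CPM, and again every sarcomatoid tumour lay above the adenocarcinomas. Arhgap42, a GTPase-activating protein known from mouse smooth muscle, was at 2-fold or more in 9 of the 12 tumours. It reached 79.4-fold in L1363P 40.1 and was 0.897-fold in L1363P 37, 0.814-fold in L1363P 9.1 and 0.686-fold in L1363P 43. In KP 5 it was 2.72-fold, close to KP 130.10A at 2.92-fold, where Yap1 was under 2-fold. Sarcomatoid tumours held 78.3 to 9066 CPM of Arhgap42 (median 1677), L1363P carcinosarcomas 76.5 to 5569 CPM (median 126), and L1363P adenocarcinomas 174, 124 and 44.9 CPM.

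**Figure D2:**
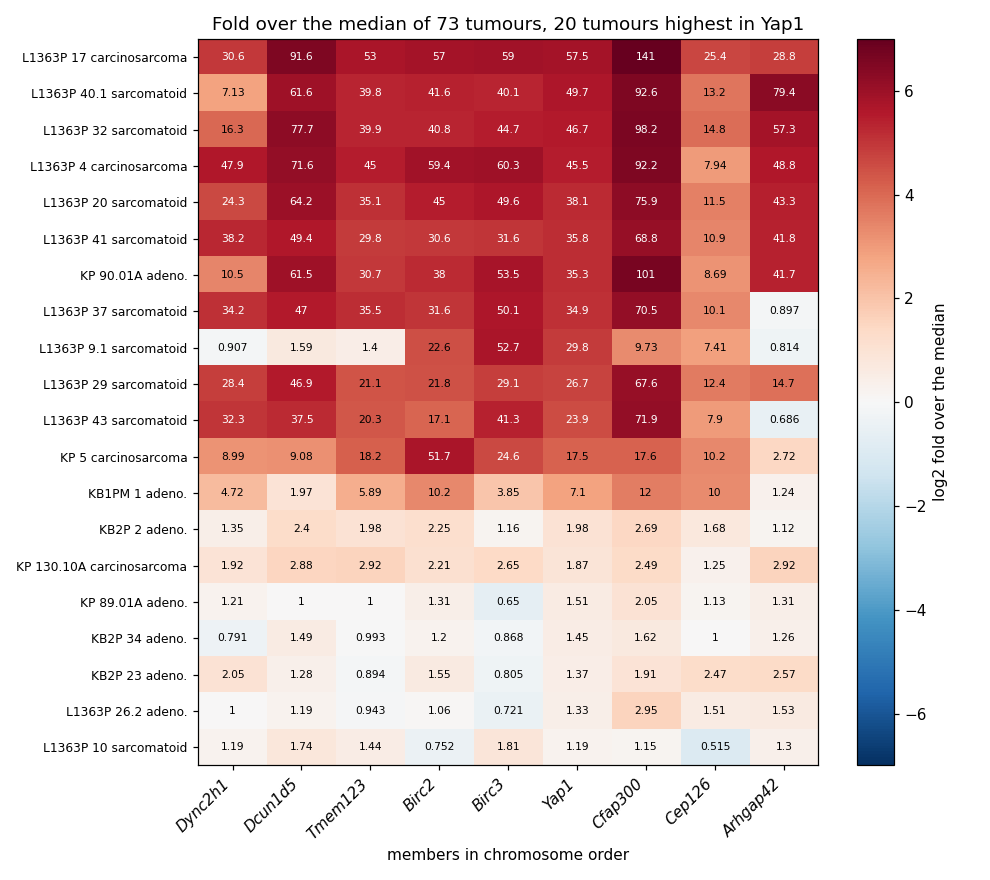
Fold over the median of 73 tumours for the 9 genes (columns, in chromosome order) in the 20 tumours with the most Yap1 (rows, highest at the top); colour is log2 fold and the printed number the fold. The 5 genes from Birc2 to Cep126 are high in each of the first 12 rows, while the genes at both ends are near 1 in L1363P 9.1 and Arhgap42 also in L1363P 37 and 43.

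By position, the members at 2-fold or more in all 12 tumours were Birc2, Birc3, Yap1, Cfap300 and Cep126, a stretch of 0.316 Mb. So were Casp4, Casp12, Mmp13 and Mmp3, which are not members and lie left of Birc2. All 9 members were at 2-fold or more in 9 of the 12 tumours, 8 in L1363P 37 and 43, and 5 in L1363P 9.1. Among all 13569 genes with a median of at least 1 CPM, the share at 2-fold or more was 15.4% in L1363P 17, 15.1% in L1363P 40.1, 14.6% in L1363P 32, 15.1% in L1363P 4, 15.3% in L1363P 20 and 15.1% in L1363P 41. It was 16.3% in KP 90.01A, 16% in L1363P 37, 14.7% in L1363P 9.1, 15.2% in L1363P 29, 15.7% in L1363P 43, 9.58% in KP 5 and 11.8% in KB1PM 1. Since the members were selected on these values, nothing is read from that difference.

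Among the members, L1363P 9.1 set the inner bounds. There Tmem123, which ends 23893 bases before Birc2, was at 1.40-fold while Birc2 was at 22.6-fold. On the other side Cep126 was at 7.41-fold while Arhgap42 was at 0.814-fold. Other genes did not all keep to these bounds in that tumour. Trpc6, the next gene right of Cep126, was at 5.81-fold, and the metalloproteinase genes Mmp13 and Mmp3, left of Tmem123, were at 29.1 and 221-fold. On the outer side, genes beyond the members varied from tumour to tumour. Pdgfd, a growth factor gene left of Dync2h1, was at 170-fold in L1363P 43 and 46.4-fold in L1363P 17, and between 0.735 and 6.51-fold in the other 10, and it was at 2-fold or more in 10 of the 12. Gria4, a glutamate receptor gene with a median of 1.11 CPM, was also at 2-fold or more in 10 of the 12, from 0.902 to 21.4-fold. Alkbh8, the leftmost expressed gene of the window, was at 46.0-fold in L1363P 17, against 0.592 to 1.46-fold in the other 11. Casp4 and Casp12, inflammatory caspase genes, were at 2-fold or more in all 12 tumours but at no more than 5.11 and 7.77-fold. Between Cep126 and Arhgap42 lie Trpc6 and Pgr, which have medians of 3.93 and 4.48 CPM, and their folds ran from 0.308 to 8.34 and from 0.0337 to 2.37 over the 12. In L1363P 40.1, with Arhgap42 at 79.4-fold, they were at 1.85 and 2.30-fold. Arhgap42 ends at chr9:9239101, and the next gene with a median of at least 1 CPM, Jrkl, starts at chr9:13242607. The stretch between them held no gene at that level, so where elevation ended there was not seen. From Jrkl on, no gene exceeded 4.33-fold in any of the 12 (Fut4 in L1363P 9.1). Of the metalloproteinase genes between Dcun1d5 and Tmem123, Mmp3 was at 11.8 to 896-fold and Mmp13 at 17.2 to 382-fold in the 12. Mmp12, which lies between those 2 genes, was at 2-fold or more in 10 of the 12. It ran from 0.462-fold (L1363P 41) to 34.8-fold (L1363P 29), with 0.716-fold in L1363P 9.1. Mmp3 was also at 103-fold in L1363P 10, where no member reached 2-fold.

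**Figure D3:**
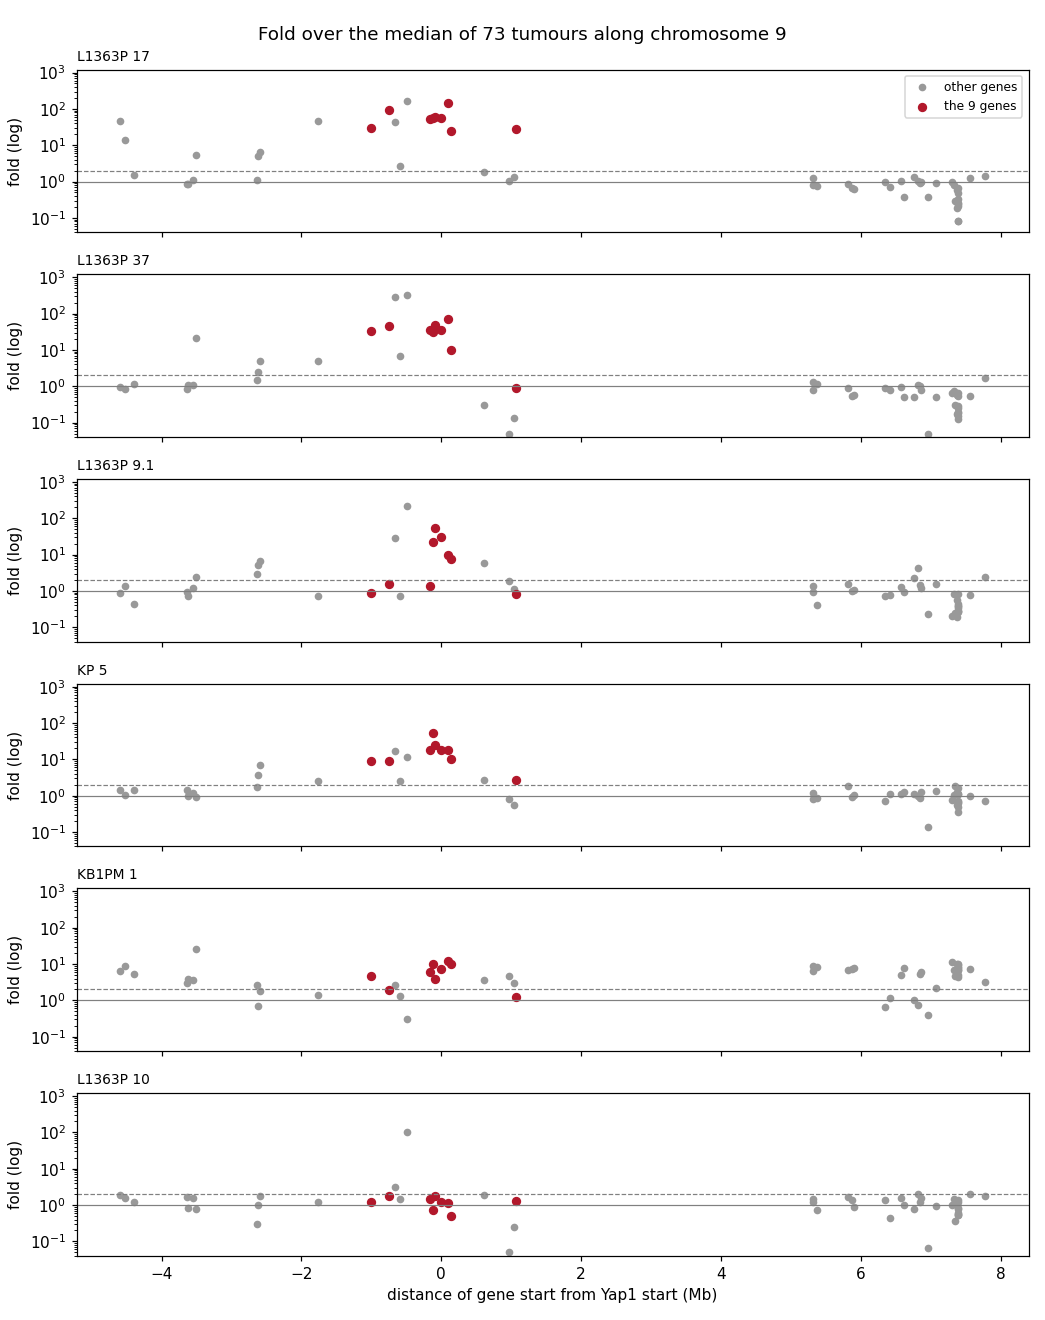
Fold over the median of 73 tumours (log axis) of 57 genes with a median of at least 1 CPM, by distance of the gene's start from that of Yap1, in 6 tumours; red points are the 9 genes, grey points other genes, the solid line is 1-fold, the dashed line 2-fold, and values under 0.05 are drawn at 0.05. L1363P 17 is high at Alkbh8 and Pdgfd as well, L1363P 9.1 only from Birc2 to Cep126 among the 9 genes, and KB1PM 1 is moderately high over most of the window.

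KB1PM adenocarcinoma 1 differed from the 12 in level and in extent. Its members ran from 1.24-fold (Arhgap42) to 12.0-fold (Cfap300), with 7 of 9 at 2-fold or more and Dcun1d5 at 1.97-fold. Genes far from Yap1 on both sides were elevated to a similar degree: Alkbh8 at 6.48-fold and Cwf19l2 at 8.59-fold on the left, and Maml2 at 8.51-fold, Amotl1 at 7.79-fold and Cep295 at 9.46-fold on the right, though not all genes there were (Sesn3 0.677 and Endod1 1.18-fold). Its epithelial markers summed to 2924 CPM and its fibroblast markers to 1825 CPM. KP carcinosarcoma 5, labelled 90% epithelial, had summed epithelial markers of 3739 CPM, against 80.5 to 570 CPM in the other 11. It was the only one of the 12 near the adenocarcinoma group medians, which ran from 2524 CPM (KB2P) to 3965 CPM (KP). Single adenocarcinomas lay far below those medians, down to 183 CPM among those titled KB1PM and 16.5 CPM in KB2P. KP carcinosarcoma 130.10A had 6 members at 2-fold or more, the highest at 2.92-fold. Outside the 12, 49 of 61 tumours had no member at 2-fold, 6 had 1, 2 had 2 and 2 had 3. For KB1P and KB2P tumours other than KB1PM 1, the highest Yap1 was 1.98-fold in KB2P 2, where Dcun1d5 (2.40-fold), Birc2 (2.25-fold) and Cfap300 (2.69-fold) were also over 2-fold.

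The labelled groups were set side by side with log2 fold changes from the edgeR fit across all genes. Because the members were selected on these tumours, their values and the counts of members called are a description, no p-value is given for them, and nothing is read from the counts. Between L1363P sarcomatoid tumours and L1363P adenocarcinomas all 9 members were estimated higher. Yap1 was 9403 ± 4223 CPM in sarcomatoid tumours and 319 ± 67.8 CPM in adenocarcinomas (SD, n = 9 and 3; log2 fold change 4.81, SE 1.89). Dync2h1 was 957 ± 680 CPM in sarcomatoid tumours and 42.4 ± 13.7 CPM in adenocarcinomas (log2 fold change 4.43, SE 1.67). The other 7 had log2 fold changes from 2.84 (Cep126) to 5.29 (Cfap300). The median of the 9 was 4.66, against -0.09 over the 16147 genes tested, of which 12.1% were called higher and 18.5% lower. The count of members called was 1 (Dync2h1), but 0 without a filter on low counts, 9 with DESeq2, 7 with limma, 8 when only both groups entered the fit, and 0 to 4 when single tumours were left out (4 without L1363P 10). Epithelial markers fell in the same comparison (10 of 11, none rose) and mesenchymal (5 of 7), fibroblast (4 of 7), macrophage (5 of 5), endothelial (3 of 5) and neutrophil markers (2 of 3) rose. Of smooth muscle and pericyte markers 2 of 7 rose and 1 fell, of adipocyte markers 1 of 3 fell, and no T cell, B cell or skeletal muscle marker passed. Summed epithelial markers were 80.5 to 570 CPM in sarcomatoid tumours and 3147 to 9435 CPM in adenocarcinomas, and summed mesenchymal markers 3377 to 5154 CPM and 467 to 1352 CPM; none of these epithelial or mesenchymal markers was at 0 throughout either group. L1363P 10 had those marker levels too (106 and 5154 CPM) with all members under 2-fold. The part of cell type in the group difference was not tested.

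Between L1363P carcinosarcomas and L1363P adenocarcinomas no member was called, with 0.545% of all genes called higher. Yap1 was 3571 ± 6656 CPM in carcinosarcomas and 319 ± 67.8 CPM in adenocarcinomas (log2 fold change 3.40, the value resting on tumours 17 and 4; without them and KP 90.01A it was -0.37). With edgeR 1 member, Dync2h1, had an unadjusted p under 0.05, as had 3291 of the 16147 genes tested. Since the members were selected on these tumours, nothing is read from this or the other counts of members in this paragraph. DESeq2 called 2 members and 1119 genes. Between L1363P sarcomatoid tumours and L1363P carcinosarcomas no member was called by edgeR, with 7.45% of all genes called higher and 14% lower. No member had an edgeR unadjusted p under 0.05, while 5777 of 16147 genes had. With limma 6 members were called. The Yap1 log2 fold change was 1.41, and without the same 3 tumours it was 5.23; that omission takes out the only carcinosarcomas of L1363P with high Yap1, so it fixes the direction and tests nothing. Between KP carcinosarcomas and KP adenocarcinomas no gene was called higher (0%; edgeR gave 1926 of 16147 genes an unadjusted p under 0.05, DESeq2 called 183 in either direction and limma 1), and the Yap1 log2 fold change was -0.12 (SE 1.52). It was 2.85 without KP 90.01A and -2.38 without KP 5. On the log2 scale the L1363P contrast of carcinosarcomas with adenocarcinomas exceeded the KP contrast by 3.52 (SE 2.25) for Yap1. Over the members the excess ran from 0.87 (Cep126, SE 1.69) to 5.57 (Cfap300, SE 2.97). Without L1363P 17, L1363P 4 and KP 90.01A the Yap1 contrast was -0.37 in L1363P and 2.88 in KP tumours, the reverse order. Between KB1P tumours, those titled KB1PM included, and KB2P tumours no member was called, with 5.38% of 18492 genes called higher and 7.81% lower. The Yap1 log2 fold change was 0.24 (SE 0.42) and -0.13 without KB1PM 1. Genotype and sequencing run cannot be told apart there.

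**Figure D4:**
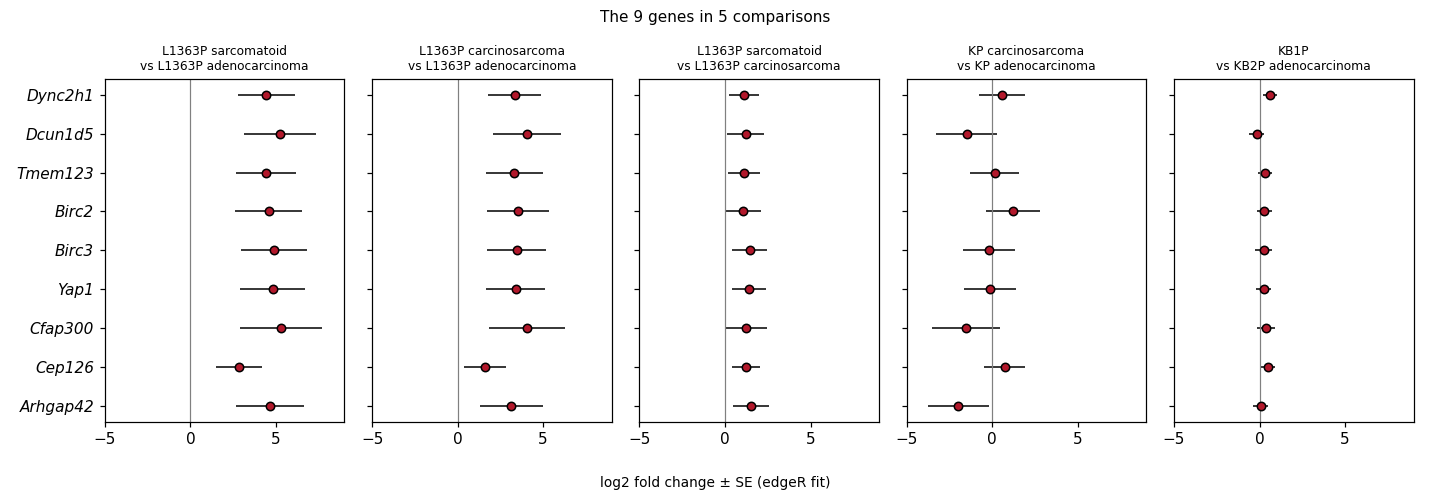
Log2 fold change (the first group named minus the second) with its standard error for the 9 genes in 5 comparisons. All 9 lie above 0 in the first panel, Yap1 at 4.81, and Yap1 lies at -0.12 in the KP panel and 0.24 in the KB1P panel.

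Genes known to be switched on by YAP and TEAD were counted in the same fit. Of 19 target genes tested, 8 were higher and none lower in L1363P sarcomatoid tumours than in L1363P adenocarcinomas, with a median log2 fold change of 1.29, beside 12.1% higher and 18.5% lower over all genes. The largest were Ccdc80, a matrix protein gene (3.36, SE 0.97, edgeR adjusted p = 0.0117), Axl, a receptor kinase (3.00, SE 0.72, 0.00363), Dock5, an exchange factor for Rac (2.27, SE 0.51, 0.00217), and Asap1 (1.83, SE 0.36, 7.9e-04). The textbook targets Ccn1 and Ccn2, named here because they are best known, did not pass, with log2 fold changes of 1.33 and 0.22. In sarcomatoid tumours against L1363P carcinosarcomas 4 targets were higher, among them Ccdc80 (1.76) and Axl (1.19), and Foxf2 was lower (-3.20). Over all genes 7.45% were higher and 14% lower there. In L1363P carcinosarcomas against adenocarcinomas F3, tissue factor, was the only one to pass (2.28, SE 0.64, edgeR adjusted p = 0.0487), beside 0.545% of all genes higher.

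L1363P 10, the sarcomatoid tumour with Yap1 at 1.19-fold, had 10 of 19 targets at 2-fold or more over the median, against 6 to 13 in the other 8 sarcomatoid tumours. It was the lowest of the 9 sarcomatoid tumours in 5 of the 19 targets and the highest in 2. Axl was 1433 CPM there, within the sarcomatoid range of 584 to 1513 CPM. Ccdc80 was 76.0 CPM, the lowest of the sarcomatoid tumours, and Ankrd1, a muscle ankyrin repeat protein gene and YAP target, was 38.6 CPM, the next to lowest after 24.0 CPM in L1363P 9.1. KP carcinosarcoma 5 had 6 of 19 targets at 2-fold or more and 30.4 CPM of Ankrd1, between the other KP carcinosarcomas at 57.7 and 19.9 CPM. KB1PM 1, with Yap1 at 7.10-fold, had 4 of 19 and 0.613 CPM of Ankrd1, below the group median of 1.77 CPM.

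**Figure D5:**
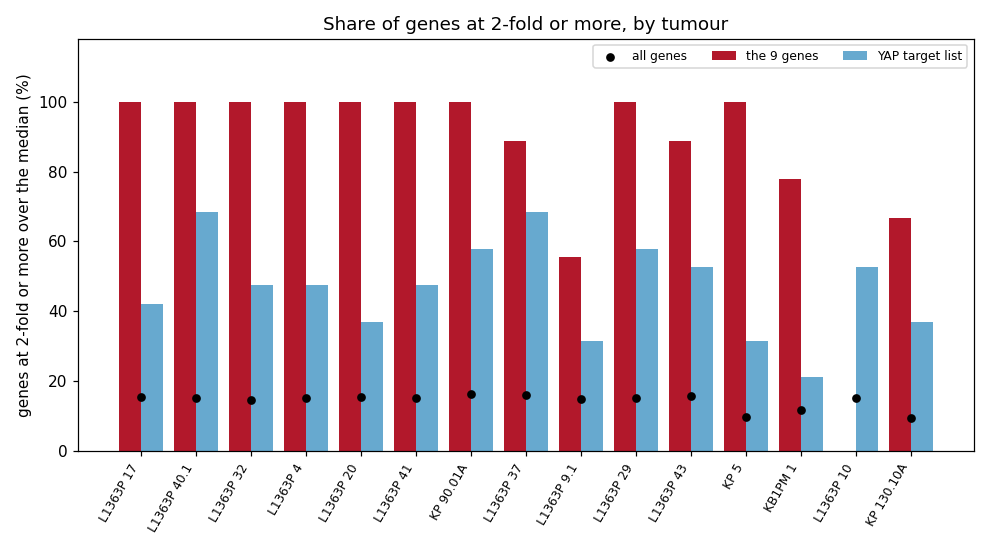
Share of genes at 2-fold or more over the median of 73 tumours, for the 9 genes (red bars), 19 YAP target genes (blue bars) and all genes with a median of at least 1 CPM (black points), in the 12 tumours with Yap1 at 10-fold or more and in KB1PM 1, L1363P 10 and KP 130.10A. The red bar is absent in L1363P 10, where 10 of 19 targets are at 2-fold or more.

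In L1363P sarcomatoid tumours against adenocarcinomas 4 of 18 genes of the Hippo pathway and TEAD family were higher and 2 lower, with a median log2 fold change of 0.02, beside 12.1% higher and 18.5% lower over all genes. Amot (3.00, SE 0.66) and Amotl2 (2.33, SE 0.85), which encode angiomotins that bind YAP, Lats2 (1.66, SE 0.40), a kinase that inhibits it, and Tead1 (1.44, SE 0.34), its DNA-binding partner, rose. Wwc1 (KIBRA), an activator of the kinases, fell by 2.91 on the log2 scale (SE 0.58), and Vgll4, a competitor of YAP for TEAD, fell by 1.92 (SE 0.31). L1363P 10 was the lowest of the sarcomatoid tumours in 6 of the 18 and the highest in 7, with Tead1 highest at 959 CPM and Amotl2 lowest at 42.1 CPM.

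Of 17 genes of the inhibitor of apoptosis family and TNF receptor signalling, 2 were higher and 2 lower in that comparison. Over all genes 12.1% were higher and 18.5% lower, so nothing is read from these counts. Ripk1 (0.88) and Diablo (-0.94) were among those that passed, and of 11 NF-kB factors and targets none passed. Of 22 partners of Dync2h1 in intraflagellar transport 4 were lower and none higher, Wdr34 most (-1.07); that count is near the 18.5% called lower over all genes. The only motile cilia gene to pass of 5 tested was Rsph1 (-2.63). Of 17 genes of cullin neddylation Dcun1d3 alone passed (0.70). In KB1P against KB2P adenocarcinomas 2 of 19 YAP targets were higher and none lower, beside 5.38% higher and 7.81% lower over all genes.

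Likeness to Yap1 was described by Pearson's r of log2 CPM over the 73 tumours, which fall into the 12 high ones and the rest, among 12696 genes. The 8 other members had r from 0.80 (Arhgap42) to 0.97 (Birc2), and the first 7 ranks were all members. They were chosen for being high together with Yap1 in these tumours, so these values and ranks follow from the choice. Within the 61 tumours outside the 12, r was 0.74 for Birc2, 0.70 for Cfap300, 0.67 for Tmem123, 0.64 for Dcun1d5, 0.58 for Cep126, 0.58 for Dync2h1, 0.40 for Birc3 and 0.39 for Arhgap42. Leaving out KB1PM 1, r was 0.53 for Birc2, 0.53 for Cfap300, 0.44 for Tmem123, 0.65 for Dcun1d5, 0.30 for Cep126, 0.37 for Dync2h1, 0.27 for Birc3 and 0.47 for Arhgap42. The genes most like Yap1 that are not members were Thbs3 (0.83), Angptl7 (0.83), Il1rl1 (0.82), Glipr2 (0.81), Fez2 (0.81), Pla2g15 (0.81), Ssc5d (0.80), Pdia5 (0.80), Cdc42ep2 (0.80) and Amotl2 (0.79), all outside the window. Within the 61 tumours their r ran from -0.15 to 0.28. Leaving out KB1PM 1, Angptl7 had 0.32, above Birc3 and Cep126, and the others at most 0.16.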

How the data were processed

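RNA-seq counts of 73 tumours were used. Per the labels, total RNA was extracted with TRIzol and libraries were made with a strand-specific mRNA kit. Per the submitters' processing notes, cutadapt 2.10, STAR 2.7.3a, featureCounts 2.0.0 and DESeq were used with build mm10. No source used here gives the strand setting of counting. Antisense genes overlap Yap1 (Gm20416) and Arhgap42 (Gm16833), with median counts of 2 and 1. Of the 9482 words of Yap1 transcript sequence, 68 also occur in Gm20416, and reads from that shared part cannot be told apart without the setting. Of the 7214 words of Arhgap42, none occur in transcripts of other genes. The authors deposited whole-number counts per symbol, and a table of log2 normalized counts, used as an alternative. Of the symbols, 24 had turned into dates (0.1688% of counts).

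Counts were tested with edgeR 4.0.16 (R 4.3.3; quasi-likelihood, TMM, filterByExpr with a minimum count of 10, Benjamini-Hochberg threshold 0.05). The 29 L1363P and KP tumours were fitted in 5 groups, and all 73 in 8 groups for KB1P against KB2P, where KB1P is the mean of the KB1P- and KB1PM-titled groups. The code was tested on simulated data. Alternatives were DESeq2 1.42.0, limma 3.58.1, other scaling and filters, single tumours left out, and the exclusions chosen after seeing the data. Positions are from GENCODE M21 and promoters from RefSeq. Windows were set at 10 Mb either side of Yap1. On the left the chromosome ends before that, since Yap1 starts at chr9:7931999. The first gene there with a median of at least 1 CPM, Alkbh8, starts at chr9:3335140. Named genes are all members, up to 4 per list and direction past the test, and the 10 most like Yap1. The members and lists were chosen with earlier results of these data known. Labels do not say whether tumours are separate animals. KB1P and KB2P replicate numbers did not pair (correlations from -0.127 to 0.42). Some results of the pathway lists are not reported here.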

Additional observations from a re-analysis of the deposited data

Results flagged for a closer look

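Within groups of 4 to 10 tumours, 17 of 36 group and gene combinations had 1 tumour farther from the rest than Dixon's 95% limit. Chance flags about 1 in 20 groups, but the genes of 1 tumour are not independent. The members were also chosen for being high together in some of these tumours, so nothing is read from the count. All 9 genes were flagged for KP 90.01A among KP adenocarcinomas: Dync2h1 at 497 CPM, Dcun1d5 at 4265 CPM, Tmem123 at 6880 CPM, Birc2 at 2098 CPM, Birc3 at 2192 CPM, Yap1 at 10415 CPM, Cfap300 at 1214 CPM, Cep126 at 182 CPM and Arhgap42 at 4761 CPM.

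KB1PM 1 stood apart from the other KB1PM tumours in Dync2h1 (222 CPM), Tmem123 (1318 CPM), Birc2 (560.3 CPM), Yap1 (2094 CPM), Cfap300 (144 CPM) and Cep126 (210.2 CPM). L1363P 17 did so among L1363P carcinosarcomas in Cep126, with 534 CPM where the next tumour had 167 CPM. L1363P 10 was the one low tumour, with 74.2 CPM of Birc3 among sarcomatoid tumours, where the next had 1191 CPM.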

How the results depend on the processing

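Between L1363P sarcomatoid tumours and adenocarcinomas the members called numbered 0 without a filter, 9 with DESeq2, 7 with limma on the deposited log2 values, 8 with only the groups compared and 9 without L1363P 17, L1363P 4 and KP 90.01A; leaving out 1 tumour gave 0 to 4 members and 2490 to 5072 genes. Between L1363P carcinosarcomas and adenocarcinomas DESeq2 called 1119 genes and 2 members, limma 175 genes and only the groups compared 6; leaving out 1 tumour gave 91 to 1114 genes. There the log2 fold change turned to -0.093 for Cep126 with limma and, without the 3 tumours, to -0.17 (Dcun1d5), -0.29 (Birc2), -0.071 (Birc3), -0.37 (Yap1), -1.35 (Cfap300), -1.02 (Cep126) and -0.048 (Arhgap42). Between sarcomatoid tumours and carcinosarcomas limma called 6 members, omission of the 3 tumours gave 9 members and 5994 genes, and leaving out 1 tumour gave 0 to 1 members and 2636 to 4687 genes. In KP tumours DESeq2 called 183 genes, limma 1 and only the groups compared 2, and leaving out 1 tumour gave 0 to 2. With limma the KP log2 fold changes turned to 0.57 (Dcun1d5), 1.08 (Birc3), 0.78 (Yap1) and 0.40 (Cfap300), and without the same 3 tumours to 2.35 (Dcun1d5), 3.37 (Birc3), 2.88 (Yap1), 2.78 (Cfap300) and 0.96 (Arhgap42). Leaving out 1 KP tumour gave -2.30 to 0.94 (Arhgap42), -2.35 to 4.29 (Birc2), -2.48 to 3.34 (Birc3), -1.39 to 2.05 (Cep126), -3.67 to 2.76 (Cfap300), -2.65 to 2.33 (Dcun1d5), -0.86 to 2.14 (Dync2h1), -1.68 to 2.64 (Tmem123) and -2.38 to 2.85 (Yap1). For KB1P against KB2P only the groups compared gave 1521 genes and 1 member, limma -0.019 for Birc2, and omission of KB1PM 1 gave -0.011 (Tmem123), -0.20 (Birc2), -0.13 (Yap1), -0.14 (Cfap300) and -0.065 (Cep126). The replicate block, whose numbers do not pair the tumours, called 265 genes and gave -0.017 (Tmem123), -0.19 (Birc2), -0.16 (Yap1) and -0.61 (Cfap300). The median r of the members with Yap1 was 0.602 with Spearman's rank correlation, 0.621 over 44 tumours and 0.355 without KB1PM 1. The cause of these changes was not tested. With 3 L1363P adenocarcinomas and 3 KP carcinosarcomas, the number of tumours limits these comparisons.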
